A study of Homo sapiens with 2 samples.

Results

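The genes that carry the WNT signal into a cell were examined in 2 established human cell lines of BCP-ALL, an acute leukemia of B-cell precursors. They comprise 40 genes, namely 18 WNT ligands, 10 Frizzled (FZD) receptors, 4 further receptors (LRP5, LRP6, ROR2 and RYK), 4 secreted antagonists (SFRP1, SFRP2, DKK1 and DKK3), the scaffolds AXIN1 and AXIN2, and the ubiquitin ligases RNF43 and ZNRF3. The list was given by gene symbol, and each of the 40 symbols matched 1 gene ID among the 57773 in the files. REH is positive for ETV6/RUNX1 and its second ETV6 allele is deleted, whereas 697 is negative for this fusion. Both lines were untreated and were grown in the same RPMI medium with fetal bovine serum. Each was sequenced as 1 library from 1 culture of an established line, so the spread between cultures is unknown, no test between the lines was possible, and every difference given here is a difference between these libraries.

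WNT proteins are secreted, lipid-modified ligands that bind Frizzled receptors on the cell surface. When LRP5 or LRP6 joins the complex, beta-catenin escapes the destruction complex built on AXIN proteins and activates target genes together with TCF and LEF factors. ROR2 and RYK act as receptors in branches that need no beta-catenin, SFRP and DKK proteins block the signal outside the cell, and RNF43 and ZNRF3 remove Frizzled proteins from the surface. In the bone marrow, WNT signals act on hematopoietic stem cells and on early B-cell precursors.

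The REH library held 45188375 reads in genes and the 697 library 41097497 reads. Levels are given as reads, as CPM (reads scaled to a common library size by TMM) and, where genes are compared with each other, as RPKM, which divides CPM by the summed exon length in kb. Of the 9 markers of B-cell precursors, 8 had at least 10 reads in REH and 9 in 697, the exception being VPREB1 with 3 reads in REH. The markers HBB, HBA1, CD3D and COL1A2 had 0 reads in both libraries, although CD3E had 45 reads in REH. CD8A had 0 reads in REH and 10 in 697, and the erythroid marker ALAS2 had 21 and 13. The erythroid list summed to 0.418 CPM in REH and 0.352 CPM in 697, the T-cell list to 0.936 and 0.298 CPM, and the stromal list, of which only COL1A1 reached 10 reads, to 9.52 and 10.5 CPM. The myeloid list summed to 253 CPM in REH and 2.25 CPM in 697. Of its 4 genes MPO made up 252 CPM of the REH value. In REH and 697, CD14 had 29 and 8 reads, CSF1R had 30 and 61, and LYZ had 1 and 2. The source of the MPO reads, and any part it had in the results, was not tested.

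Of the 40 genes, 23 were compared because 10 or more reads fell on them in 1 or both lines, and the remaining 17 had at most 9 reads in either. In REH 21 of the 40 reached 10 reads and in 697 17 did, with 15 in both. Of the 23 genes compared, 6 reached 10 reads only in REH and 2 only in 697, where the shares over all 19145 genes compared were 14.5% and 6.3%. Of the 23 genes, 12 differed by 4-fold or more, which is a log2 ratio of 2 or more in size. Higher in REH were 8 of them (34.8%), namely FZD8, RYK, RNF43, FZD6, WNT4, WNT9A, FZD7 and AXIN2. Among all genes compared this share was 12.5%, and among the 13489 protein-coding genes it was 10.9%. Higher in 697 were 4 (17.4%), namely WNT10B, DKK1, FZD3 and WNT3, against 8.14% of all genes and 7.16% of protein-coding genes. The list was chosen with earlier results of these data known, so these shares describe it and are no test of an excess. The log2 ratios of the 23 genes, REH over 697, ran from -5.70 to 10.2. Their median was 0.47, beside 0.05 over all genes and 0.03 over protein-coding genes. At a log2 ratio of 1, 11 of the 23 were higher in REH and 5 in 697, against 22.4% and 17.4% of all genes. Nearest to the threshold were WNT3 at -2.07 and AXIN2 at 2.11 inside it, and WNT8A at 1.76 and WNT5B at -1.64 outside it.

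**Figure D1:**
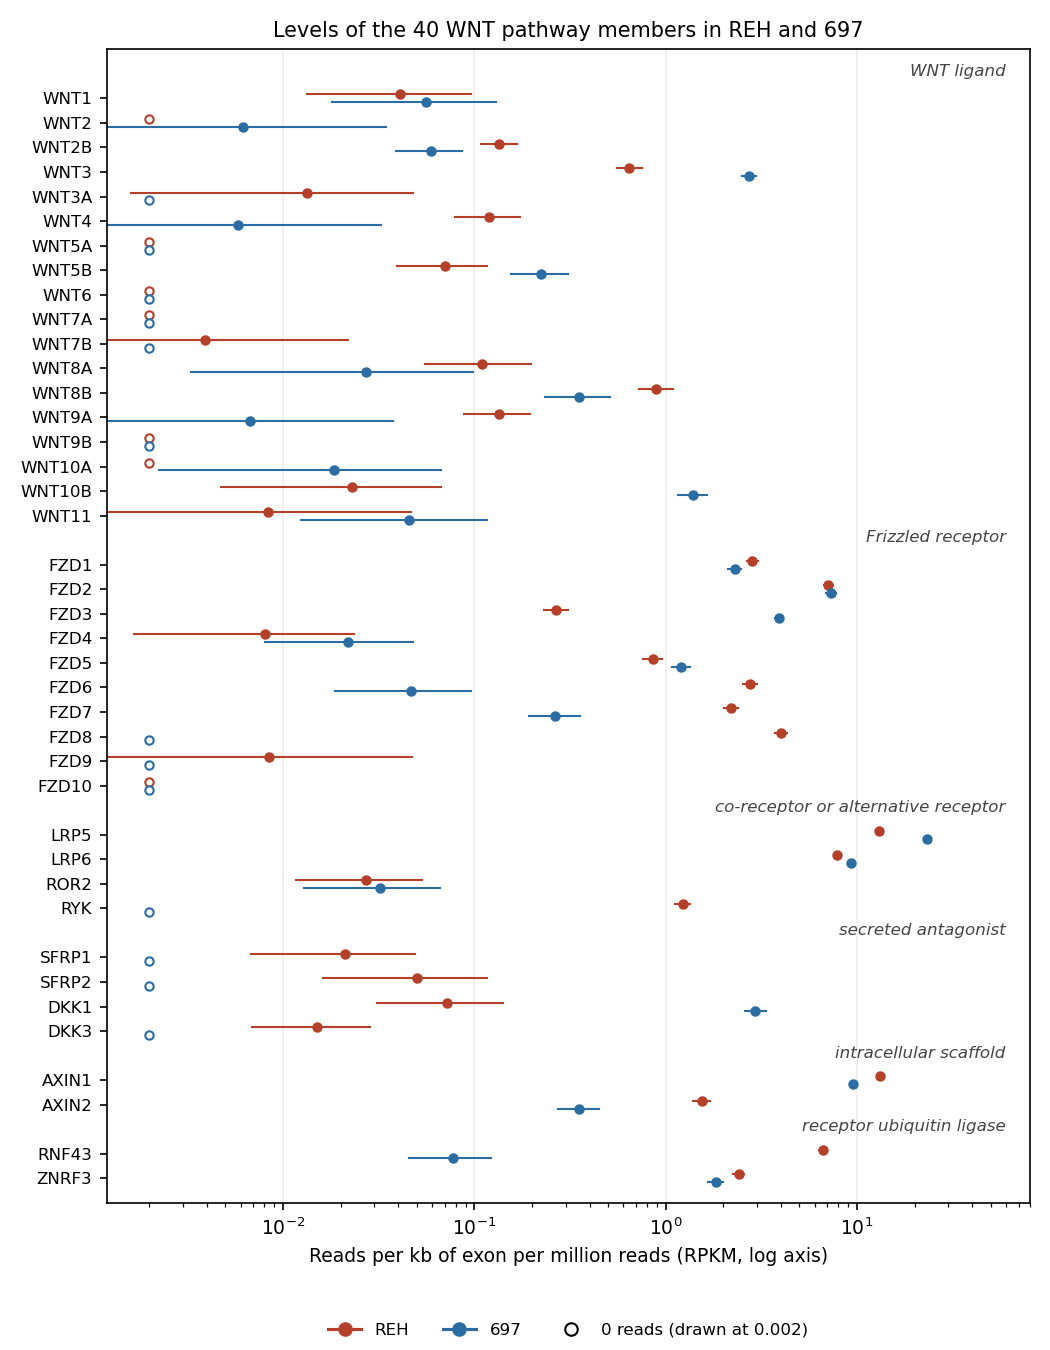
Level of each of the 40 genes in REH (red) and 697 (blue), in RPKM on a log axis, with 95% Poisson counting intervals as lines. Open circles stand for 0 reads. FZD2, LRP5, LRP6 and AXIN1 lay high in both lines, whereas FZD8 and RYK had reads in REH alone.

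The start regions of 4 of these genes are shown, since they belong to genes past the threshold in opposite directions. FZD8 and RYK were the genes past it with no read in 697, and DKK1 and WNT3 were those higher in 697 that have an entry in the RefSeq promoter table. Each line holds the 250 bases before the RefSeq start, read 5′ to 3′ on the strand of the gene (GRCh38.p14), and lies in no exon of its own gene in GENCODE 44. The window of WNT3 lies in an intron of a longer WNT3 transcript, and that of DKK1 overlaps an exon of PRKG1-AS1 on the opposite strand. Capitals mark matches on either strand to CTTTGA (the core bound by TCF and LEF factors), TGTGGT (the core bound by RUNX factors), CAGGTG (an E-box bound by E proteins such as TCF3) and GGGCGG (the GC box). The matches did not overlap each other in the windows shown.
FZD8 (chr10:35642297-35642546, minus strand): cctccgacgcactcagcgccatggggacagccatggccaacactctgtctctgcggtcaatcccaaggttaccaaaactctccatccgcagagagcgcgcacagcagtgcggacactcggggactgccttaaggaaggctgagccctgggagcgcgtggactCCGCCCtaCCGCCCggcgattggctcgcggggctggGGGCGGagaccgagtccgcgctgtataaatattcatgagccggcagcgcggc
RYK (chr3:134250860-134251109, minus strand): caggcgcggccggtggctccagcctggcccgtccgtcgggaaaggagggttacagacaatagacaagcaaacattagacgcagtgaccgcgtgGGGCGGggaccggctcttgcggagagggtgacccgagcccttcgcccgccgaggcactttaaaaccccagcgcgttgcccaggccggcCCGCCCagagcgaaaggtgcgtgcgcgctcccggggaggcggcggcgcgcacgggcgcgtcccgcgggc
DKK1 (chr10:52314031-52314280, plus strand): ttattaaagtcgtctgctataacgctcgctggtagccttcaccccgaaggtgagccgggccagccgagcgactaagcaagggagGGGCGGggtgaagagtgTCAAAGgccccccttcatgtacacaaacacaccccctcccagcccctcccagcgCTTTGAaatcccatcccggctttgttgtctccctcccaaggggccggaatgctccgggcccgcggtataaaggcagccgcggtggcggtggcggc
WNT3 (chr17:46818693-46818942, minus strand): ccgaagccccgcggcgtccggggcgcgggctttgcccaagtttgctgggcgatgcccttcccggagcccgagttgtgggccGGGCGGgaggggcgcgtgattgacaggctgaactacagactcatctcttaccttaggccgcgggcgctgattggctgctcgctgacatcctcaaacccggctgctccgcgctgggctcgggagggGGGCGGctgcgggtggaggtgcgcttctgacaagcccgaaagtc

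The windows of FZD8, RYK, DKK1 and WNT3 held 24, 34, 18 and 26 CG pairs, against a median of 11 in the 35116 promoter windows of the same length. FZD8 and RYK held 3 and 2 GC boxes. DKK1 held 2 TCF/LEF cores and 1 GC box, and WNT3 held 2 GC boxes. The TCF/LEF core occurred in 11.2% of all windows, the RUNX core in 11% (3855 windows), the E-box in 17.5% and the GC box in 42.6%. RefSeq windows were found for 27 of the 40 genes, 31 windows in all. Of these 31, 25 held a GC box, 7 the E-box, 3 the RUNX core (WNT5A, WNT5B and RNF43) and 1, that of DKK1, the TCF/LEF core. A match is a description of the sequence, and binding was not measured.

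The 18 WNT ligands had few reads. Of them, 7 reached 10 reads in REH and 5 in 697, and WNT5A, WNT6, WNT7A and WNT9B had 0 reads in both libraries, where 3 reads correspond to 0.0597 CPM in REH and 0.0812 CPM in 697. Summed over the 18 ligands there were 448 reads in REH and 782 in 697, or 2.20 and 4.91 RPKM. Per kb of exon the leading one of these 18 in 697 was WNT3. WNT16, a ligand outside the list that is described below, stood far higher there, at 131 RPKM. In REH, WNT8B (0.891 RPKM) and WNT3 (0.646 RPKM) had overlapping counting intervals, and with the longest transcript as gene length WNT3 was the higher (1.02 against 0.891 RPKM), so their order was not resolved.

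WNT3, a ligand of the beta-catenin branch, had 175 reads (3.48 CPM) in REH and 543 reads (14.7 CPM) in 697. It was 4.22-fold higher in 697 (95% counting interval 3.55 to 5.03). Without TMM scaling its log2 ratio was -1.77, short of the threshold. WNT10B, also a ligand of that branch, had 3 reads in REH and 133 reads (3.598 CPM) in 697. The ratio was 60.2-fold, and with only 3 reads in REH its interval ran from 20.2 to 296. Per kb of exon it ranked next to WNT3 in 697, at 1.38 against 2.73 RPKM.

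WNT4 and WNT9A went the other way at far lower counts. WNT4, known for its role in kidney and gonad development, had 28 reads in REH and 1 in 697 (20.6-fold, interval 3.41 to 842.5). WNT9A had 27 reads in REH and 1 in 697 (19.9-fold, interval 3.28 to 813.5). Both stood at about 0.1 RPKM in REH (0.120 for WNT4 and 0.134 for WNT9A), at percentiles 11 and 11.8 of the genes compared, and the size of both ratios rests on a single read in 697. With 5 reads added to each count in place of 0.5, the log2 ratio of WNT9A fell from 3.75 to 1.97, below the threshold.

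The other ligands with 10 reads differed by less than the threshold. WNT8B had 96 reads (1.91 CPM) in REH and 28 (0.757 CPM) in 697, 2.52-fold higher in REH (interval 1.64 to 3.99). WNT5B, of the branch without beta-catenin, had 15 and 35 reads, 3.17-fold higher in 697 (interval 1.69 to 6.25). For WNT8A, with 11 and 2 reads, the interval of the log2 ratio held 0 (-0.18 to 5.23), so no difference was detectable at this depth. WNT2B had 84 and 27 reads, 2.29-fold higher in REH (interval 1.47 to 3.68), but its count is uncertain because 21.5% of its exon length is shared with ST7L on the opposite strand. The 10 ligands below 10 reads had at most 5 reads in a library, the highest being WNT1 with 5 in each.

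Several ligand genes lie beside each other in the genome (GRCh38 positions of GENCODE 44), and their reads are set side by side here. WNT10B (chromosome 12, 48965340 to 48971735) lies 6.59 kb from WNT1, which had 5 reads in each line. WNT3 (chromosome 17, 46762506 to 46833154) lies next to WNT9B, which had 0 reads in both. WNT9A lies 59.1 kb from WNT3A on chromosome 1, where WNT3A had 2 reads in REH and 0 in 697. The pair WNT6 and WNT10A on chromosome 2 had no more than 2 reads in either library.

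Summed per kb of exon, the Frizzled receptors exceeded the 18 listed ligands in both lines. In 697 they did not exceed WNT16, a ligand outside the list, at 131 RPKM. The lines differed in which Frizzled receptors they carried. Summed over the 10 genes the level was 20.0 RPKM in REH and 15.1 RPKM in 697. FZD2 was the most abundant in both, with 1342 reads (7.07 RPKM) in REH and 1027 reads (7.35 RPKM) in 697, and its log2 ratio of -0.06 had an interval that held 0 (-0.17 to 0.06). Its sign changed to 0.25 without TMM scaling and to 0.09 with reads on the gene strand. FZD1 (984 and 584 reads) was 1.24-fold higher in REH (interval 1.12 to 1.38), and FZD5 (302 and 314 reads) was 1.41-fold higher in 697 (interval 1.203 to 1.66). These 3 receptors thus formed a shared set with small differences.

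Next to this set, REH held FZD8, FZD6 and FZD7. FZD8 (chromosome 10, 35638247 to 35642296) had 816 reads (16.2 CPM) in REH and 0 in 697. Set against the floor of 3 reads per library, it was 200.2-fold higher in REH, and its counting interval had a lower bound of 162.4-fold. Of the 8496 genes with at least as many reads in REH, 49 (0.577%) had 0 reads in 697. FZD6, which signals largely through planar cell polarity, had 566 reads (11.3 CPM) in REH and 7 (0.189 CPM) in 697, 59.5-fold higher in REH (interval 28.7 to 149), and 3.39% of its exon length is shared with BAALC-AS1. FZD7 had 506 reads (10.1 CPM) and 45 (1.22 CPM), 8.28-fold higher in REH (interval 6.09 to 11.5).

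FZD3 showed the opposite pattern. This receptor, known for guiding axons through planar cell polarity, had 185 reads (3.68 CPM) in REH and 1989 reads (53.8 CPM) in 697. It was 14.6-fold higher in 697 (interval 12.6 to 17.1). FZD4, FZD9 and FZD10 had at most 6 reads in either library.

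In REH the order per kb of exon was FZD2, FZD8 (4.01 RPKM), FZD1 (2.84), FZD6 (2.77), FZD7 (2.20), FZD5 (0.854) and FZD3 (0.267), and only FZD1 and FZD6 had overlapping counting intervals as neighbours. In 697 it was FZD2, FZD3 (3.90), FZD1 (2.29), FZD5 (1.21), FZD7 (0.265) and FZD6 (0.0466), with no overlap between neighbours. FZD2 made up 35.3% of the summed Frizzled level in REH and 48.7% in 697. FZD8, FZD6 and FZD7 made up 20.0%, 13.8% and 10.97% in REH, whereas in 697 FZD7 was at 1.76% and FZD6 at 0.309%. FZD3 moved from 1.33% in REH to 25.9% in 697.

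**Figure D2:**
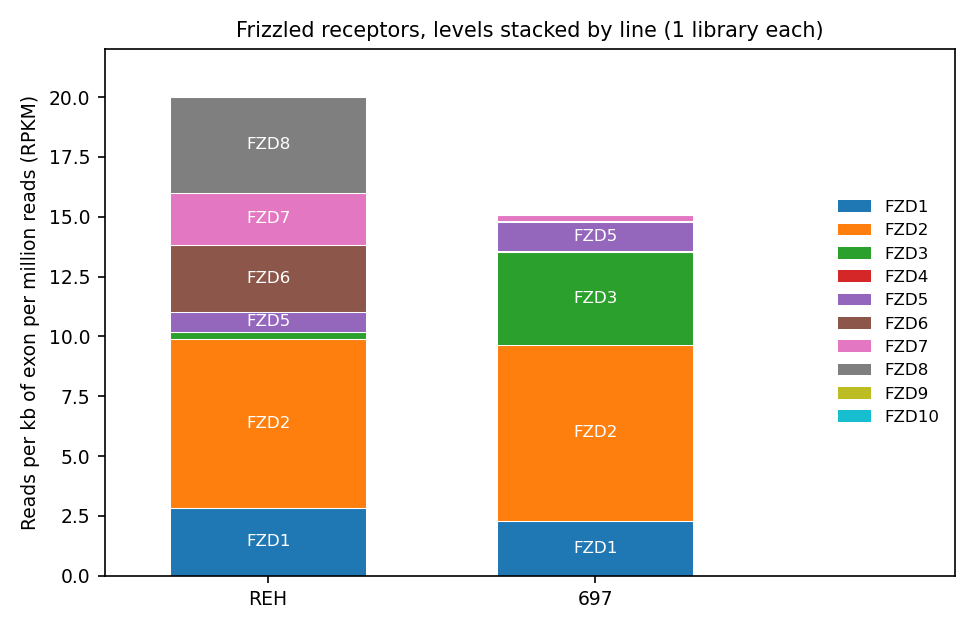
Levels of the 10 Frizzled receptors stacked by line, in RPKM, from 1 library each. FZD2, FZD1 and FZD5 were found in both bars, FZD8, FZD6 and FZD7 filled the upper part of the REH bar, and FZD3 took 25.9% of the 697 bar.

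The coding genes on either side of the genes past the threshold were read as well, a comparison added after the values were seen. Both neighbours of FZD3 were higher in 697 too, with 4 and 51 reads for FBXO16 and 3067 and 9893 reads for EXTL3 in REH and 697. Both neighbours of FZD6 were higher in REH, with 259 and 23 reads for BAALC and 1270 and 2 for CTHRC1. For AXIN2, which was higher in REH, the neighbours RGS9 (5 and 46 reads) and CEP112 (287 and 359 reads) had log2 ratios below 0. The neighbours of FZD7 and FZD8 were close to silent, with at most 2 reads in either library. Beside WNT4, CDC42 and ZBTB40 had log2 ratios of -0.37 and 0.07. Beside WNT10B, RNF43 and WNT3, the ratios were 0.16 for ARF3, 0.42 for SUPT4H1 and -0.56 for NSF. The neighbours of RYK and DKK1 are given with these genes below. Whether position had a part in these differences was not tested.

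LRP5 and LRP6, the co-receptors that beta-catenin signalling requires, were among the most abundant of the 40 genes in both lines. LRP5 (chromosome 11, 68312591 to 68449275) had 4033 reads (80.3 CPM) in REH and 5326 reads (144 CPM) in 697, 1.80-fold higher in 697 (interval 1.72 to 1.87). LRP6 had 4096 reads (81.5 CPM) and 3554 reads (96.1 CPM), with a log2 ratio of -0.24 (interval -0.30 to -0.17) that became 0.07 without TMM scaling, a setting that shifted the median of all genes by 0.31. Per kb of exon, LRP5 exceeded LRP6 in both lines (12.99 against 7.86 RPKM in REH, 23.3 against 9.27 RPKM in 697).

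RYK, a WNT receptor with an inactive kinase domain, was found in REH alone. It lies on chromosome 3 (134065303 to 134250859) and had 503 reads (10.0 CPM) in REH and 0 in 697. Against the floor of 3 reads it was 123-fold higher in REH, and its counting interval had a lower bound of 99.97-fold. Of the 9573 genes with at least as many reads in REH, 73 (0.763%) had 0 reads in 697. Its nearest coding neighbours were SLCO2A1, with 0 reads in both libraries, and AMOTL2, with 31 reads in REH and 2 in 697. ROR2 had 8 and 7 reads and was below the minimum in both lines.

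Among the secreted antagonists only DKK1 passed the minimum. DKK1 (chromosome 10, 52314281 to 52318042), which blocks LRP5 and LRP6 and is itself induced by beta-catenin, had 8 reads (0.159 CPM) in REH and 242 reads (6.55 CPM) in 697. It was 41.1-fold higher in 697 (interval 20.5 to 96.3), and 10.2% of its exon length is shared with PRKG1-AS1. Of its coding neighbours, PRKG1 had 5 reads in REH and 39 in 697 and MBL2 had 0 in both. SFRP1 and SFRP2 had 5 reads each in REH and DKK3 had 9, and the 3 genes had 0 reads in 697. These counts are too low to set a size, and at 5 reads against 0 the interval of the log2 ratio still held 0 (lower bound -0.57). For DKK3 the lower bound was 0.54, and 47.5% of its exon length is shared with USP47 on the opposite strand.

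The scaffolds and ubiquitin ligases that limit the signal were transcribed in both lines, and all 4 had log2 ratios above 0. AXIN1, the constant scaffold of the destruction complex, had 4994 reads (99.4 CPM) in REH and 2648 reads (71.6 CPM) in 697, 1.39-fold higher in REH (interval 1.32 to 1.46). AXIN2 (chromosome 17, 65528563 to 65561648), a feedback scaffold and a widely used target gene of beta-catenin, had 402 reads (8.002 CPM) in REH and 68 reads (1.84 CPM) in 697. It was 4.35-fold higher in REH (interval 3.36 to 5.71), so its interval reached below the 4-fold threshold. Of its exon length 25.3% is shared with a gene on the same strand, so part of its reads may have been left out as ambiguous. ZNRF3 had 844 reads (16.8 CPM) and 471 reads (12.7 CPM), 1.32-fold higher in REH (interval 1.18 to 1.48).

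RNF43, the partner of ZNRF3 and also a target of beta-catenin, stood out among these with 2104 reads (41.9 CPM) in REH and 18 reads (0.487 CPM) in 697, 86.0-fold higher in REH (interval 54.3 to 145). It lies on chromosome 17 (58353676 to 58417595), where TSPOAP1-AS1 runs over it on the opposite strand and shares 5.45% of its exon length. Reads in a stretch that both genes share were left out of the pooled column. In the columns split by strand, RNF43 had 1812 and 1859 reads in REH and 201 and 204 reads in 697, and TSPOAP1-AS1 had 1293 reads in REH and 328 in 697 in the pooled column. With either strand column the log2 ratio of RNF43 fell from 6.39 to 2.74 and 2.76. Both remained above the threshold, but the size of the difference rests on how shared reads were handled. In 697 the strand columns together held 387 reads beyond the 18 of the pooled column. Most of the 697 reads behind the 2.74 and 2.76 were thus ones that the pooled column left out as ambiguous. The libraries held no strand information, so the shared reads cannot be assigned to either gene. For WNT2B the same columns moved the log2 ratio from 1.18 to 2.42 and 2.36, past the threshold.

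**Figure D3:**
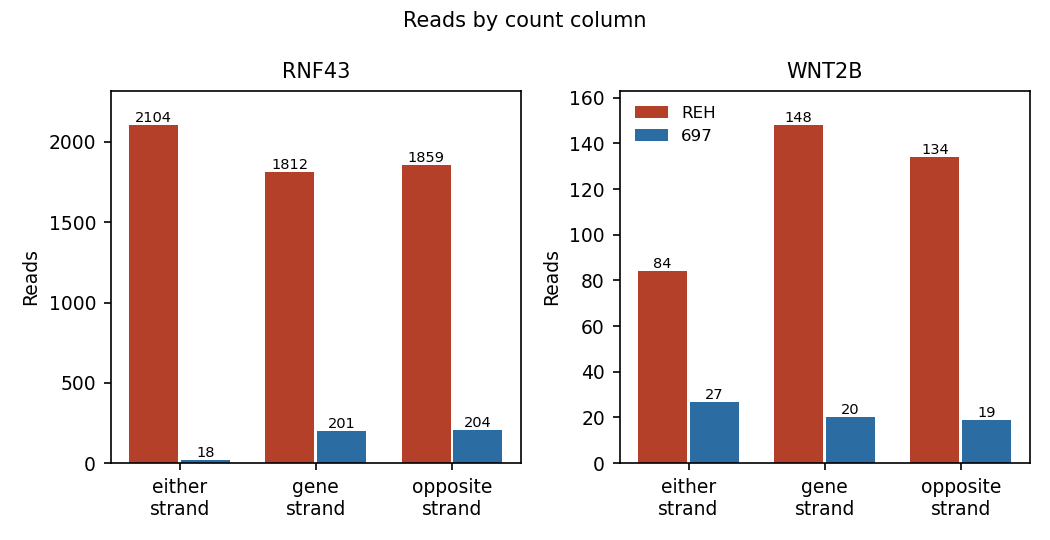
Reads counted for RNF43 and WNT2B in the 3 count columns (either strand, strand of the gene, opposite strand) in REH (red) and 697 (blue). The strand columns add reads that the pooled column left out as ambiguous, 387 for RNF43 in 697 and 198 for WNT2B in REH.

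**Figure D4:**
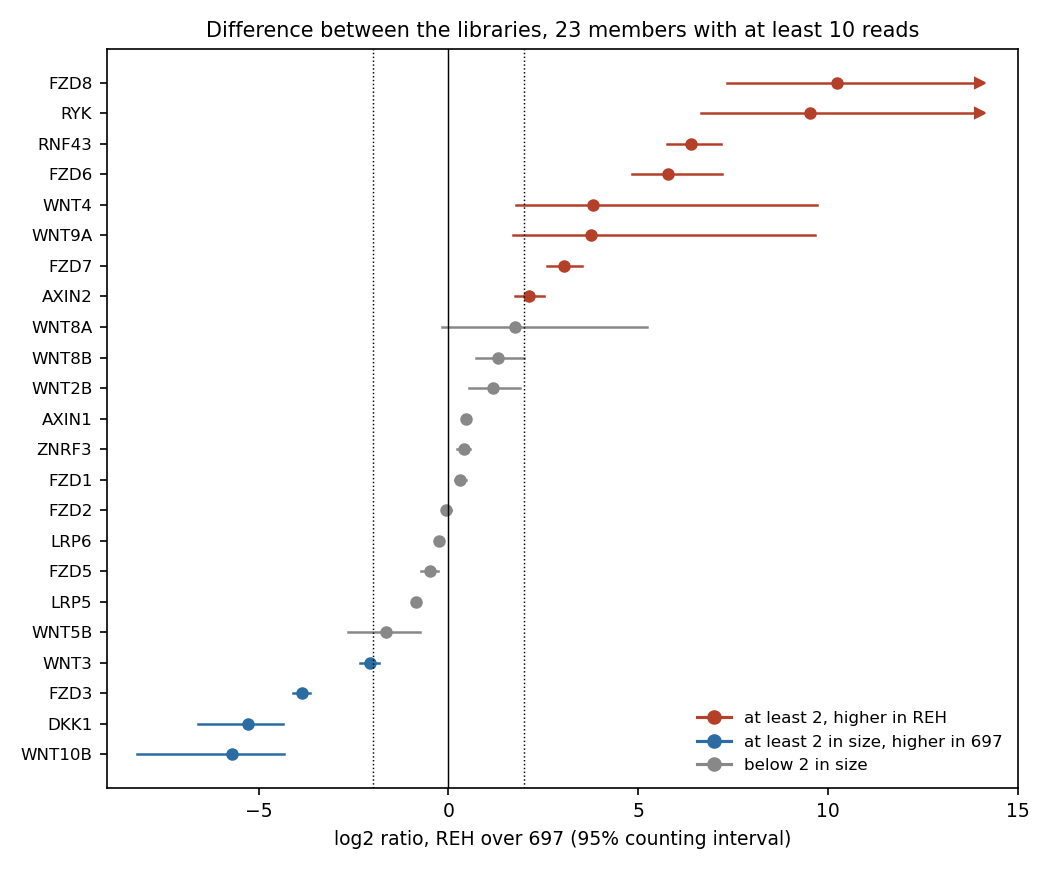
Log2 ratio of REH over 697 for the 23 genes compared, with 95% counting intervals. Arrows mark intervals without an upper bound (0 reads in 697), dotted lines mark a ratio of 2 in size, and colours mark the 8 genes higher in REH (red) and the 4 higher in 697 (blue).

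The rest of the pathway was read from a list of 58 further genes. Of these, 44 reached 10 reads in a library, and at the same threshold 6 (13.6%) were higher in REH and 4 (9.09%) in 697. These shares lay near the 12.5% and 8.14% of all genes compared. The log2 ratios of the 44 had a median of 0.0031 and ran from -11.1 to 10.8. The 6 genes of the destruction complex and the 4 genes for beta-catenin and Dishevelled all stayed below the threshold.

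Among ligands, receptors and polarity genes those past the threshold were WNT16, ROR1, LGR5 and VANGL1. WNT16, a further WNT ligand, had 9 reads (0.179 CPM) in REH and 15847 reads (429 CPM) in 697, 2393-fold higher in 697 (interval 1260 to 5234). At 131 RPKM in 697 it was 26.7 times the sum of the 18 other ligands and lay at the 98.8th percentile of the genes compared. ROR1, a receptor related to ROR2, had 2 reads in REH and 1840 reads (49.8 CPM) in 697, a ratio of 1250 (interval 346 to 10330). VANGL1, a core protein of planar cell polarity, had 19 and 2055 reads, 147-fold higher in 697 (interval 93.9 to 245). LGR5, a receptor for R-spondins, had 1036 reads (20.6 CPM) in REH and 0 in 697. It was 254-fold higher in REH against the floor of 3 reads, with an interval from 206.3-fold upward. The R-spondin ligands themselves had at most 7 reads.

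KREMEN1, a receptor for DKK proteins, had 355 reads in REH and 2 in 697, a ratio of 131 (interval 35.9 to 1083). DKK1, in contrast, had 8 reads in REH and 242 in 697. Further surface or secreted antagonists were higher in REH at low counts. FRZB had 13 and 0 reads, 3.19-fold higher in REH against the floor of 3 reads, with an interval from 2.24-fold upward. Its log2 ratio fell from 4.31 to 1.41 with 5 reads added. TRABD2A had 73 and 6 reads, but with reads on the gene strand its log2 ratio turned from 3.06 to -0.77, and 0.103% of its exon length is shared with TMSB10 on the opposite strand.

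In the nucleus, LEF1 was the leading TCF/LEF factor, with 29884 reads (595 CPM) in REH and 38926 reads (1053 CPM) in 697, 1.77-fold higher in 697 (interval 1.74 to 1.80). TCF7 had 477 reads in REH and 6 in 697, 58.5-fold higher in REH (interval 26.7 to 160). CTNNB1, which encodes beta-catenin, had 5109 reads (102 CPM) and 9955 reads (269 CPM), 2.65-fold higher in 697 (interval 2.56 to 2.74). The corepressor TLE3 had 3639 reads in REH and 1 in 697, a ratio of 2678 with an interval from 480 to 105800, and PYGO1, a coactivator of beta-catenin, had 1 read in REH and 331 in 697 (ratio 450, interval 80.2 to 17820).

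Of the 3 genes for WNT secretion only PORCN could be compared. PORCN, which attaches the lipid to WNT proteins, had 372 reads (7.41 CPM) in REH and 203 reads (5.49 CPM) in 697, 1.35-fold higher in REH (interval 1.13 to 1.61). WLS, which carries WNT proteins to the cell surface, had 1 read in REH and 0 in 697, and NOTUM, an enzyme that removes the lipid, had 0 reads in both.

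**Figure D5:**
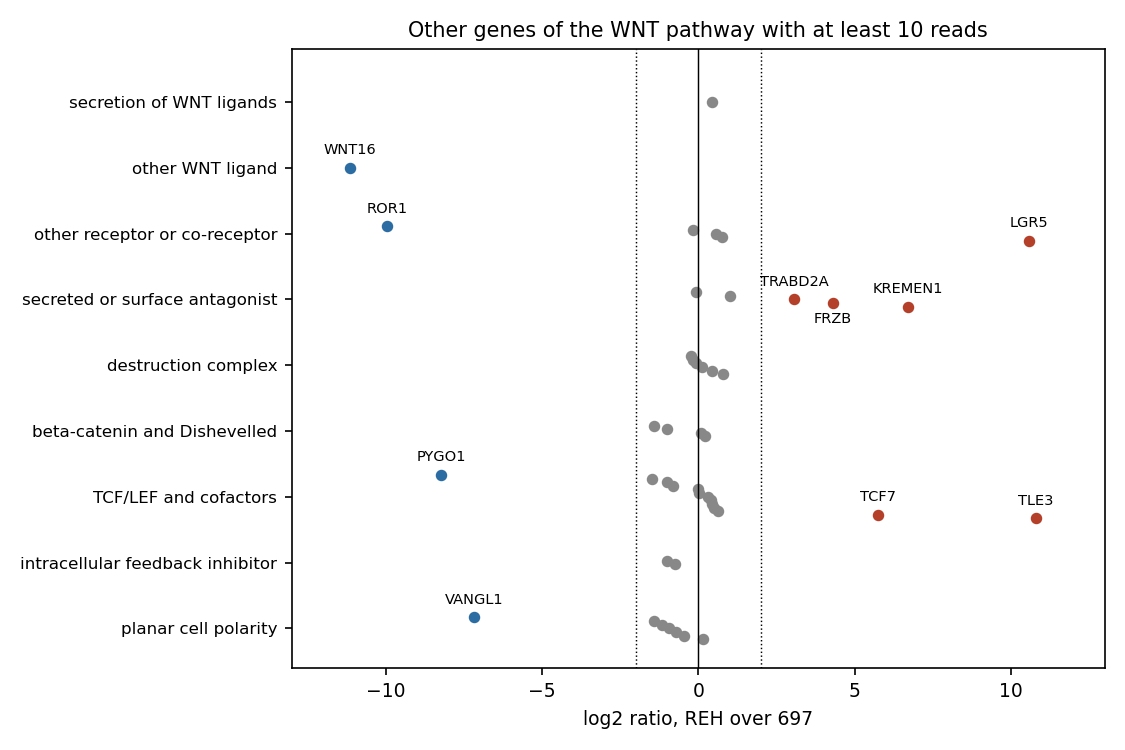
Log2 ratio of REH over 697 for the 44 other pathway genes with at least 10 reads, by role, 1 point per gene. Dotted lines mark a ratio of 2 in size, and named points are the 6 genes higher in REH (red) and the 4 higher in 697 (blue).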

How the data were processed

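REH and 697 were each represented by 1 library, grouped by the cell line in the sample labels. The authors deposited whole-number gene counts written by STAR, neither normalized nor filtered, with 3 columns (either strand, gene strand, opposite strand). The methods name hg38 and poly(A) purification, whereas the labels name hg19 and stranded, ribodepleted libraries. In both libraries 50.1% to 50.2% of strand-assigned reads lay on the gene strand. The annotation release is not given in the sources used here. Multimapping reads (10.8% and 15.4%) and reads ambiguous between genes (4.58% and 4.41%) were left out of the gene counts by STAR.

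The column of either strand was used. Symbols, positions and exon lengths came from GENCODE 44 (51996 of 57773 IDs matched). The counts may rest on another release, so exon lengths and shared exon percentages need not match the exons that were counted. Totals were scaled by TMM (edgeR 4.0.16, R 4.3.3). Log2 ratios are REH over 697 after adding 0.5 reads. Counting intervals (95%) are exact Clopper-Pearson intervals of the share of reads from REH, or exact Poisson intervals for a single library, and cover counting error only. A gene was compared at 10 or more reads in a library and counted as higher at a log2 ratio of 2 in size. No p-value is given. The study used DESeq2, which needs replicates. A fold against 0 reads sets the empty count at the floor of 3 reads, and the lower bound of its counting interval is given beside it.

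Every member with at least 10 reads is described. Of the other pathway genes, those past the threshold are named (up to 12), with CTNNB1, LEF1, TCF7, PORCN and WLS. The members and lists were chosen with earlier results of these data known. Alternatives were size factors of DESeq2 1.42.0, totals without scaling, TMM computed on protein-coding genes alone, minimums of 1 and 50 reads, 5 added reads, a log2 ratio of 1, either strand column and the longest transcript as gene length. The computation was tested on simulated data. Figures were drawn with matplotlib 3.10.9 under Python 3.11.15.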

Additional observations from a re-analysis of the deposited data

Results flagged for a closer look

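The columns split by strand, which the comparisons did not use, held reads of RNF43 and WNT2B beyond those in the pooled column. The excess was 1567 reads in REH and 387 reads in 697 for RNF43, and 198 reads in REH and 12 reads in 697 for WNT2B. Both genes share exon sequence with a gene on the opposite strand, TSPOAP1-AS1 and ST7L, and ST7L had 655 reads in REH and 29 in 697.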

How the results depend on the processing

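No paired analysis was possible because REH and 697 were sequenced once each, and for the same reason no replicate could be left out. The number of the 40 genes higher in REH lay between 6 and 11 under every alternative, and the number higher in 697 between 3 and 5, except with a minimum of 1 read, where it was 7. The counts over all genes moved as well. Higher in 697 were 1559 of 19145 with the main settings and 4410 of 31276 with a minimum of 1 read. Higher in REH were 2396 of 19145 with the main settings, 3592 of 31276 with that minimum and 1464 of 14612 with a minimum of 50 reads. At a log2 ratio of 1, 11 of the 44 other pathway genes were higher in 697 and 7 in REH, where the shares of all genes compared were 17.4% and 22.4%. Both medians describe lists whose log2 ratios lay on both sides of 0. The median of the 23 genes compared ranged from 0.40 to 0.78 over the settings. That of the other pathway genes turned to -0.03 with a minimum of 50 reads and to -0.05 and -0.04 with the strand columns. Among single ratios past the threshold, TRABD2A changed sign (-0.77 with reads on the gene strand, an alternative added for the other pathway genes after seeing the data). WNT8A passed the threshold without TMM scaling (2.06), and WNT5B passed it and WNT3 fell short of it with reads on the gene strand (-2.09 and -1.95); the cause was not tested. Depth limits the sizes for genes with under 10 reads in a line.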
